A study of Mus musculus with 50 samples.

Results

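The genes described here are the nuclear genes of the last 3 complexes of the respiratory chain: complex III (names in Uqcr), complex IV (Cox4 to Cox8) and complex V, the ATP synthase (Atp5). The rule used the name and the mean level over all tumors. Of 45 matching names in the table, 1 name with -ps was left out and 2 genes, Cox7b2 and Cox8c, were below the required mean RPKM of 0.5 (read counts per gene, divided by its length in kb and by library size). This left 42 of the 37701 genes in the table, 39 of them non-muscle genes. By name, 8 of these were of complex III, 13 of complex IV and 18 of complex V. The other 3 were muscle isoforms of complex IV, Cox6a2, Cox7a1 and Cox8b. The member nearest to the cut-off was Atp5s, with a mean RPKM of 2.45, and the highest gene below it was Cox7b2, with 0.0258.

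RNA of 50 mammary gland tumors was sequenced. The tumors came from female p53R270H/+WAPCre mice, 8 weeks old at the start, which carry a mutant p53 allele switched on by Cre under the promoter of the milk protein gene Wap, active in mammary epithelium. Every other day the mice received a subcutaneous injection of vehicle, insulin, the insulin analogues glargine or X10, or IGF1 (insulin-like growth factor 1), and each tumor was taken at 1 cm3, 24 h after the last injection. There were 10 tumors per group, each from a different mouse, and the study had picked EMT-like tumors with a latency close to the median of their group, so that they do not represent all tumors of these mice. Tumors titled untreated in the labels were taken as the vehicle group. The mutant p53 allele was shared by all groups, vehicle included.

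In the respiratory chain, complex III passes electrons to cytochrome c, complex IV passes them on to oxygen, and both pump protons across the inner mitochondrial membrane. Complex V lets the protons flow back and makes ATP. A few catalytic subunits are encoded in mitochondrial DNA, and the many others are nuclear genes whose RNA is made from promoters with frequent NRF1 and GABP sites. Complex IV exchanges some subunits by tissue: Cox6a2, Cox7a1 and Cox8b replace Cox6a1, Cox7a2 and Cox8a in heart and skeletal muscle, and Cox8b and Cox7a1 are also known from brown fat.

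Many of these genes have processed pseudogenes, copies of their mRNA elsewhere in the genome, and the sequences of Cox6c, the member with the smallest p-value, show how alike they are. Cox6c encodes a small subunit of complex IV. Its gene is at chr15:35925886-35938246 (GRCm38, minus strand), has up to 4 exons in a transcript and overlaps Vps13b. The copy Gm6265 is at chr12:56373593-56373823 and Gm16399 at chr3:14802356-14802574, both on the minus strand and without introns. Shown are the coding sequence of Cox6c (231 bases) and the corresponding stretches of the copies, with capitals for bases that differ from Cox6c: 7 in Gm6265 (97.0% identity) and 12 of the 219 bases of Gm16399 (94.5% identity).
Cox6c: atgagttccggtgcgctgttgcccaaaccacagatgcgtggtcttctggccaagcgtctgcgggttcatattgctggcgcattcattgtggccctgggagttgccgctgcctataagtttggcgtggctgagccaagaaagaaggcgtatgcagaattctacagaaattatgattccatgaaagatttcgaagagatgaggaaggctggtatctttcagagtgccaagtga
Gm6265: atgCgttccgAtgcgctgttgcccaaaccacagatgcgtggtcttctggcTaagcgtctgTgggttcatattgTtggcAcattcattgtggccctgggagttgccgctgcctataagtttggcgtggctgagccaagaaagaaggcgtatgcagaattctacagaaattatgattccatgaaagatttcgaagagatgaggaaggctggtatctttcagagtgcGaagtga
Gm16399: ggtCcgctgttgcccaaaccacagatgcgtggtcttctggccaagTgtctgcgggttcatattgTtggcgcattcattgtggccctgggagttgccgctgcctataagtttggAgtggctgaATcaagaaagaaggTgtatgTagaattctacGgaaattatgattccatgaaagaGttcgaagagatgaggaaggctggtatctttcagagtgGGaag
Most of the coding sequence is thus identical in Cox6c and Gm6265, and the copies were at a mean RPKM of 71.4 (Gm6265) and 17.5 (Gm16399), beside 148 for Cox6c itself.

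The promoter of Cox6a1, the ubiquitous partner of the muscle isoform Cox6a2, was the one with more than 1 searched motif upstream of both annotated starts. The stretch at chr5:115349041-115349145 (GRCm38.p6, RefSeq, minus strand, 5′ to 3′) holds 2 NRF1 motifs, in capitals, the nearer of which ends 108 bases before the RefSeq start.
Cox6a1: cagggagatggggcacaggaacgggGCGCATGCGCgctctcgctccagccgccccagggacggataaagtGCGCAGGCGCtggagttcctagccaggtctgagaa
A RefSeq promoter (250 bases before to 50 after the start) was found for 30 of the 42 members. On either strand, the NRF1 motif (GCGCA, any base, GCGC) was in 7 of the 30 (23.3%), where 4.60% of all 32851 promoters hold it. The GABP motif CCGGAAG was in 9 (30.0%, against 8.86%) and the YY1 motif AAGATGGCG in 1 (3.33%, against 1.40%), so that 14 promoters (46.7%, against 13.6%) held a motif of these 3. These are matches of letters and no measurement of binding.

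Libraries held between 26.6 and 51.9 M reads (median 40.8). Epithelial markers were widely spread, with summed RPKM values from 9.58 to 5098 (median 284), and mesenchymal markers were high in every tumor, from 5123 to 35127. Of the members, 14 had near-identical copies among the tested genes, 23 copies in all, and the share of their joint reads listed under a copy set 8 libraries apart. In these 8, titled X10_111 to IGF1_128 (6 X10 and 2 IGF1 tumors), the share over the 14 members was between 11.2 and 15.0% (mean 12.8% ± 1.22, SD), and in the 42 other libraries between 16.8 and 28.5% (median 22.0%). They had the 8 lowest shares of all 50 and are consecutive in the sequence sample numbers of the labels (25 to 32). The labels give no batch. For some of the genes described for X10 and IGF1, but not for all, values are therefore also given without these 8. This choice was made after seeing the data and leaves 4 X10 and 8 IGF1 tumors. The part of the library preparation, alignment or mice in the low shares was not tested. The share moved together in different members: over the 91 pairs of members its Pearson correlation across tumors was on average 0.84 (0.56 to 0.96; n = 50 tumors, and the points share library and alignment).

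In these tumors genes of complexes V and IV had the highest levels. RPKM values had been divided by a length that for 23 of the 42 members was the median over transcripts, so levels between genes are given per kilobase of the principal transcript. On this scale Atp5b, the catalytic beta subunit, was highest with a mean of 392.5, followed by Cox4i1, the ubiquitous form of Cox4, with 359, and Cox6a1 with 324. Atp5g3, which encodes the c subunit of the proton-carrying ring, was at 243 and Atp5a1, the alpha subunit, at 196.98. The other genes of the ring subunit were lower, Atp5g2 at 71.1 and Atp5g1 at 7.85. In complex III, Uqcr11 was at 200, the core subunit Uqcrc1 at 80.9, the iron-sulfur protein Uqcrfs1 at 46.1 and Uqcrc2 at 36.7.

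At the low end were tissue-restricted forms and related factors. The mean RPKM was 4.17 for Cox4i2, a form known from lung, 2.88 for Cox6b2, known from testis, 2.45 for Atp5s, a factor related to ATP synthase, and 3.02 for Atp5l2. The last of these is annotated as a processed pseudogene in GENCODE M21 and is 99.4% identical to Atp5l over 312 bases, so that reads of the 2 genes may have been exchanged. The members that are named for their level only are given by mean RPKM and range over the 50 tumors. In complex III, Uqcrq was at 172 (108 to 365), Uqcrh at 150 (93.8 to 324) and Uqcrb at 98.9 (61.5 to 172). In complex IV, Cox7b was at 162.15 (80.5 to 383), Cox6b1 at 132.3 (80.7 to 230), Cox7c at 98.8 (58.7 to 144) and Cox5b at 71.2 (46.5 to 125). In complex V, Atp5e and Atp5d of the F1 part were at 210 (115.5 to 363) and 198 (130 to 350), and Atp5o, the stalk subunit OSCP, at 171 (119 to 324). Atp5sl, counted with complex V by its name only, was at 19.7 (11.6 to 37.5).

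Non-muscle members varied less between tumors than most genes. The SD of log2(RPKM + 0.5) over the 50 tumors had a median of 0.32 over the members and of 0.42 over all 16733 tested genes, or 0.37 over genes at a mean RPKM of 20 or more. It was smallest for Cox7a2l, a factor of supercomplex assembly (0.24), Atp5a1 (0.24) and Atp5g3 (0.25). Atp5a1, for example, was between 407 and 843 RPKM, with a median of 581. The largest SD was that of Cox4i2 (0.62), Cox6b2 (0.60) and Atp5l2 (0.44), which are low genes. In Uqcrc1, Uqcrfs1 and Cox5a the groups overlapped. Uqcrc1 had medians of 75.2 RPKM with vehicle, 72.1 with insulin, 85.5 with glargine, 72.0 with X10 and 83.5 with IGF1. Uqcrfs1 had medians of 45.1, 39.2, 52.9, 48.5 and 44.0 in the same order, and Cox5a, a nuclear subunit of complex IV, of 129, 117.95, 130, 135.1 and 134.8. In these 3 genes the median was lower with insulin than with vehicle and higher with glargine, by little in Cox5a, and the place of X10 and IGF1 varied. Atp5b went the same way, with medians of 937 with vehicle, 869 with insulin and 1014 with glargine. Atp5a1 was lower with both, with medians of 624, 570 and 552 in this order.

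Treated tumors were then tested against vehicle, compound by compound, and the 20 tumors of the X10 and IGF1 groups against the 30 others, on log2(RPKM + 0.5) with limma and Benjamini-Hochberg adjustment over the 16733 genes. These 4 comparisons with vehicle share the vehicle tumors. None of the 42 members passed an adjusted p-value of 0.05 in limma in any of the 5 comparisons or in the F test over the 5 groups. The share of all genes that passed was 0% with insulin, 0% with glargine, 0.0657% with X10, 0.00598% with IGF1, 0.155% in X10 and IGF1 against the others and 0.102% in the F test. In bulk tumors fewer cells of a type and less RNA per cell cannot be told apart.

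With insulin, most members were lower than with vehicle. Of the 39 non-muscle members 32 were lower and 7 higher. Their median log2 difference was -0.17, where the median over all tested genes was 0.03. In limma 7 members had an unadjusted p-value under 0.05, 7 of them lower, which is 17.9% of the 39, where the share of all genes in either direction was 11.1%. With quantile normalization it was 3 members, where 11.4% of all genes had such a p-value, and with the median of ratios 10 (11.8% of all genes), all lower. The smallest adjusted p-value was 0.346. By complex, 7 of 8 members of complex III were lower (median -0.22), 9 of 13 of complex IV (median -0.10) and 16 of 18 of complex V (median -0.22). Taking the median over members in each tumor, relative to each gene's mean over the tumors, insulin tumors were between -0.34 and -0.03 on the log2 scale and 10 of 10 were below 0. Vehicle tumors reached from -0.18 to 0.42, with 5 of 10 below 0, so that the groups overlapped.

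Among the members with the smallest p-values with insulin were genes of the stalk and membrane part of ATP synthase. Atp5h, the stalk subunit d, was at 188, 235 and 353 RPKM (lowest, median and highest) in vehicle tumors and at 150, 193 and 218 in insulin tumors. All 10 insulin tumors were below the vehicle mean, and the groups overlapped; the log2 difference was -0.34 (SE 0.13, p = 0.0121, adjusted p = 0.346, limma). Atp5j, the coupling factor F6, had a median of 191 RPKM in vehicle tumors (146 to 234) and of 154 in insulin tumors, the highest of which was at 196.8, a log2 difference of -0.31 (SE 0.13, adjusted p = 0.374). Atp5s had the same log2 difference of -0.31 (adjusted p = 0.380) at medians of 2.52 and 2.01 RPKM. Cox5b (-0.30), Atp5l (-0.33), Atp5g3 (-0.23) and Cox6a1 (-0.24) also had an unadjusted p-value under 0.05. Over the other settings the log2 difference of Atp5h was between -0.37 and -0.26, with an adjusted p-value between 0.254 and 0.537.

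Most genes of the same pathway outside the name rule, and of glycolysis, were also lower with insulin. Of 6 other subunits of these complexes and cytochrome c genes, 6 were lower (median -0.30, 3 with an unadjusted p-value under 0.05), and of 21 complex IV assembly genes 16 were lower (median -0.10, 5 with a p-value under 0.05, all lower). The 4 complex II genes were also lower (median -0.08), and 4 of the 6 mitochondrially encoded subunits were (median -0.07). Of 14 glycolytic enzymes 12 were lower (median -0.18, 1 with a p-value under 0.05). None of these passed the adjusted threshold. Markers of other cells differed beside them: 7 of 7 leukocyte markers were higher with insulin (median 0.61, 4 with a p-value under 0.05), with a summed RPKM of 598 to 2062 in vehicle and 622 to 2661 in insulin tumors, and 6 of 6 epithelial markers were lower (median -0.59, summed 11.2 to 5098 and 65.0 to 599). Adipocyte markers were lower for 6 of 7 (median -0.35), brown adipocyte markers for 3 of 3 (median -0.13, 1 with a p-value under 0.05), and mesenchymal markers were higher for 6 of 6 (median 0.22). With the epithelial marker score as a covariate 33 of the 39 members were lower (median -0.20), 8 of them with an unadjusted p-value under 0.05, where 9.38% of all genes had one. With the muscle and adipocyte scores 33 were lower as well (median -0.18), and 11 had such a p-value, where 12.7% of all genes had one. The part of leukocytes and mesenchymal cells in the lower members was not tested.

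**Figure D1:**
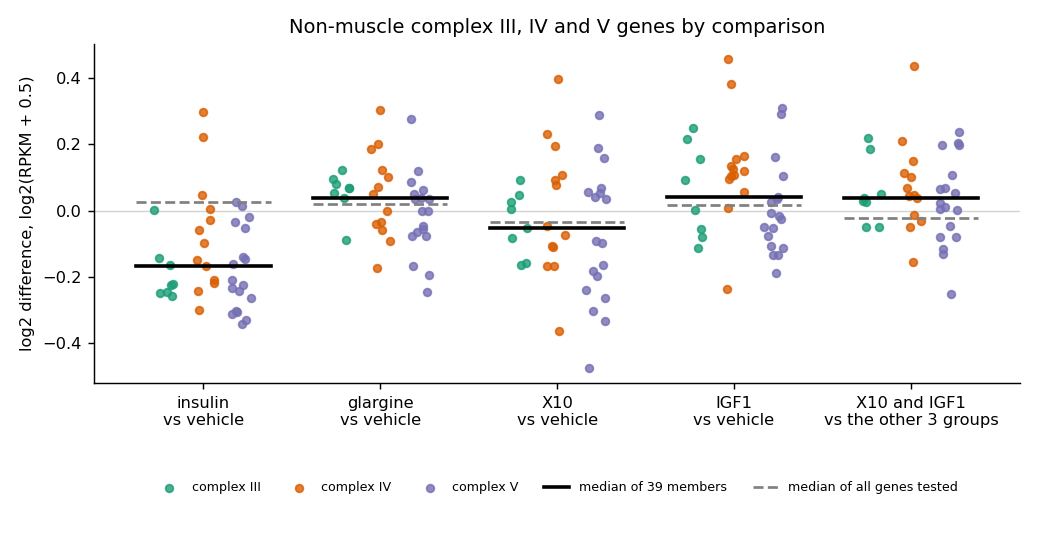
Log2 difference of each of the 39 non-muscle members in the 5 comparisons, with 1 point per gene, colored by complex, and the median over members and over all tested genes. With insulin 32 of 39 points are below 0, and in X10 and IGF1 against the others 27 of 39 are above 0.

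With glargine, members were close to vehicle as a group. Of the 39 non-muscle members 22 were higher and 17 lower (median log2 difference 0.04, all genes 0.02). None had an unadjusted p-value under 0.05, where 6.23% of all genes did, and the smallest adjusted p-value was 0.818. The differences of non-muscle members were between -0.25 and 0.30.

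With X10, 18 members were higher and 21 lower than with vehicle, with a median of -0.05 (all genes -0.03), and 4 had an unadjusted p-value under 0.05, 2 in each direction, where 11% of all genes did. Atp5l, subunit g of ATP synthase, was at 84.4, 117 and 173.8 RPKM in vehicle tumors and at 50.0, 91.5 and 125 in X10 tumors. Of the X10 tumors 9 of 10 were below the vehicle mean, with a log2 difference of -0.48 (SE 0.15, p = 0.00307, adjusted p = 0.244, limma). On average 50.9% of its joint reads were listed under its copies. Without the 8 libraries the log2 difference of Atp5l was -0.13, and with the reads of the copies added to the gene it was -0.65. Its copy Gm10221 was lower with X10 at an adjusted p-value of 0.0246 (log2 difference -0.89, limma), and without the 8 libraries it was at -0.40 (adjusted p = 1.00).

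Cox4i1 was also lower with X10. It was at 379, 448 and 663 RPKM in vehicle tumors and at 293, 345 and 451 in X10 tumors, and 10 of 10 X10 tumors were below the vehicle mean. The log2 difference was -0.36 (SE 0.13, p = 0.00699, adjusted p = 0.294, limma), and without the 8 libraries it was -0.29. In IGF1 tumors Cox4i1 was at 349, 447 and 829 RPKM, close to vehicle but for the highest tumor. No copy of Cox4i1 was found, but it overlaps Emc8. Higher with X10 were Cox6c (0.40, adjusted p = 0.344) and Atp5c1, the gamma subunit that turns within the catalytic head, with 128.2, 138 and 205 RPKM in vehicle and 131, 185 and 231 in X10 tumors (log2 difference 0.29, SE 0.10, adjusted p = 0.283). Without the 8 libraries Atp5c1 was at 0.04 and Cox6c at -0.16, on the other side of vehicle, and 2 members had an unadjusted p-value under 0.05, both higher, where 4.52% of all genes did. Then 19 members were higher and 20 lower (median -0.004). Over all X10 tumors, leukocyte markers were higher for 7 of 7 genes (median 0.35) and brown adipocyte markers lower for 3 of 3 (median -0.35). Epithelial and adipocyte markers went both ways (medians -0.05 and -0.04). None of these markers had an unadjusted p-value under 0.05 in limma. Their part in the members' values was not tested.

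With IGF1, 24 members were higher and 15 lower (median log2 difference 0.04, all genes 0.02). In complex IV 12 of 13 were higher (median 0.12), while in complex V 11 of 18 were lower (median -0.02). An unadjusted p-value under 0.05 was found for 3 members, all higher, where 8.84% of all genes had one. Without the 8 libraries 26 members were higher and 13 lower (median 0.10). Then 4 had such a p-value, 3 of them higher, where 8.29% of all genes did. Atp5g2 was at 88.4, 108 and 119 RPKM in vehicle tumors and at 102, 129 and 191 in IGF1 tumors, a log2 difference of 0.31 (SE 0.11, p = 0.00519, adjusted p = 0.362, limma). Atp5f1, the stalk subunit b, was at 80.1, 119 and 148 in vehicle and at 94.8, 135.9 and 175 in IGF1 tumors (0.29, adjusted p = 0.426), and Cox6c had a log2 difference of 0.38 (adjusted p = 0.445). Without the 8 libraries these differences were 0.33 for Atp5g2, 0.26 for Atp5f1 and 0.32 for Cox6c, and relative to the level of the chromosome 0.19, 0.13 and 0.27. Each of these genes overlapped between the groups. Epithelial markers were lower in IGF1 than in vehicle tumors for 6 of 6 genes (median -1.36, 3 with a p-value under 0.05). Leukocyte markers were higher for 6 of 7 (median 0.26, 2 with a p-value under 0.05; summed RPKM 924 to 2605, beside 598 to 2062 with vehicle), and adipocyte markers were lower for 6 of 7 (median -0.72; summed 35.0 to 184, beside 20.6 to 322). With the epithelial marker score as a covariate, 19 members were higher and 20 lower (median -0.02), and 1 member, Atp5g2 (0.30), had an unadjusted p-value under 0.05, where 5.07% of all genes did. With muscle and adipocyte scores as covariates 23 were higher (median 0.03). The part of leukocytes in the values was not tested.

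In the 20 X10 and IGF1 tumors, 27 of the 39 non-muscle members were higher than in the 30 others and 12 lower (median log2 difference 0.04, all genes -0.02). Of the 8 members with an unadjusted p-value under 0.05 (20.5% of 39, against 10.5% of all genes in either direction), 7 were higher: Cox6c, Atp5g2, Atp5c1, Atp5f1, Atp5d, Cox7b and the complex III subunit Uqcr10. The 1 lower gene was the pseudogene Atp5l2 (-0.25). In the 8 libraries of low copy share Atp5l2 was between 0.801 and 2.5 RPKM. In the 12 X10 and IGF1 tumors outside these it was between 2.02 and 4.62. With vehicle, insulin or glargine it was between 1.15 and 5.77. Without the 8 libraries 27 were again higher (median 0.09), and 4 had an unadjusted p-value under 0.05, all higher, where 5.25% of all genes did. With the copy share as a covariate 25 were higher (median 0.07), and 1 of the 39 had an unadjusted p-value under 0.05, where 4.49% of all genes did. Of the 6 other subunits and cytochrome c genes 3 were higher and 3 lower (median 0.04), and of 12 regulators of mitochondrial genes 9 were lower (median -0.08). In the other pathway lists the 4 complex II genes were lower (median -0.13, Sdhc -0.21 with adjusted p = 0.229), 13 of 21 complex IV assembly genes were higher (median 0.01), and 4 of 6 mitochondrially encoded subunits were higher (median 0.06). Of 14 glycolytic enzymes 13 were higher (median 0.17, 4 with a p-value under 0.05), among them Pgk1 (0.40, adjusted p = 0.226) and Ldha (0.31, adjusted p = 0.326). None of these passed the adjusted threshold. Beside the members, 7 of 7 adipocyte markers were lower (median -0.47, 1 with a p-value under 0.05), as were 3 of 3 brown adipocyte markers (median -0.39, 1 with a p-value under 0.05) and 5 of 6 epithelial markers (median -0.40). With muscle and adipocyte scores as covariates 27 members were higher (median 0.03), and with the epithelial score 25 (median 0.03).

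Cox6c had the smallest p-value of the members in this comparison. It was at 87.9, 129 and 172 RPKM in vehicle tumors, 94.6, 120 and 183 in insulin tumors and 103, 123.5 and 152 in glargine tumors. In X10 tumors it was at 83.4, 187.2 and 272 and in IGF1 tumors at 150, 166 and 249. The vehicle, insulin and glargine tumors overlapped throughout, the X10 tumors held both the lowest and the highest value of all, and 18 of the 20 X10 and IGF1 tumors were above the mean of the others. As means, Cox6c was at 178 ± 48.4 RPKM in X10 and IGF1 tumors (SD, n = 20) and 128.4 ± 25.3 in the others (SD, n = 30), a log2 difference of 0.44 (SE 0.10, p = 8.2e-05, adjusted p = 0.0503, limma), just above the threshold. With a pseudocount of 1 the adjusted p-value was 0.0487, with upper quartile scaling 0.0417 and with the median of ratios 0.0343.

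The higher Cox6c values went together with the 8 libraries of low copy share. In these Cox6c was at 166, 227 and 272 RPKM, 6 of the 8 above the highest of the 30 other tumors. In the 12 other X10 and IGF1 tumors it was at 83.4, 155 and 186.1, with 10 of 12 above the mean of the 30. Without the 8 libraries the log2 difference was 0.13 (adjusted p = 0.996), and with the copy share as a covariate 0.20 (adjusted p = 1.00). With the reads of Gm6265 and Gm16399, the copies shown above, added to the gene it was 0.37 (adjusted p = 0.0629). The copy share of Cox6c was on average 18.0% with vehicle, 19.1% with insulin, 22.2% with glargine, 13.2% with X10 and 18.0% with IGF1. Across the 50 tumors log2 Cox6c had a Pearson correlation of -0.62 with the copy share over the 14 members, as a description, since both are read from the same libraries. Cox6c is among these members, so its own reads enter the copy share, and a negative correlation is in part built in. The same holds for the copy share as a covariate, which Atp5c1 enters as well.

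**Figure D2:**
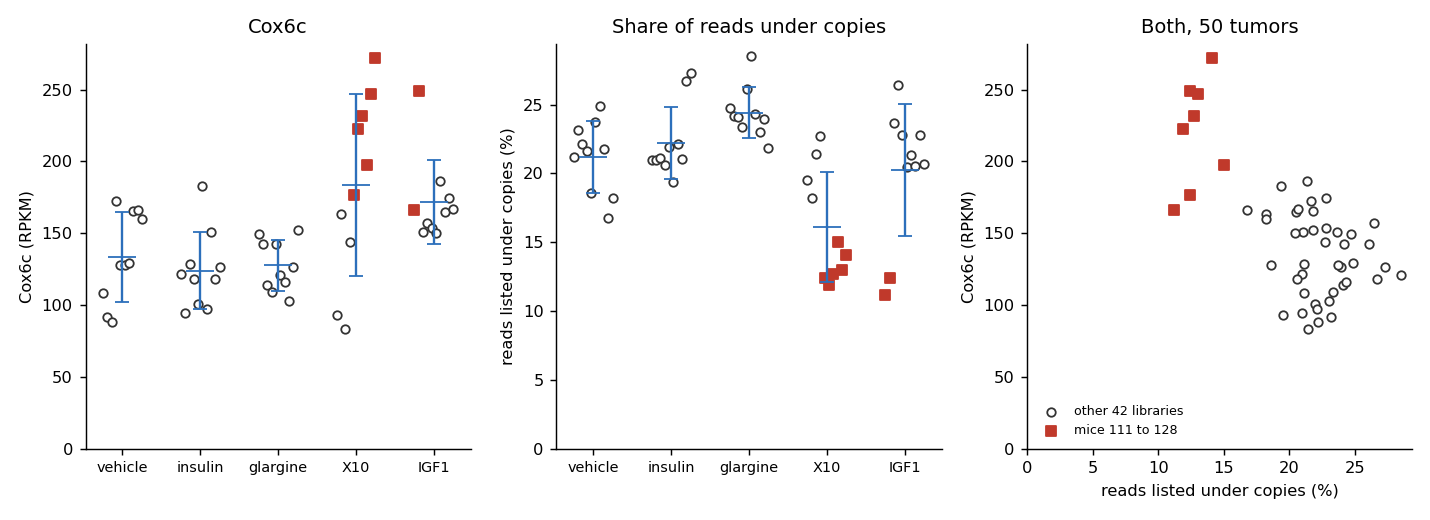
Cox6c RPKM by treatment, the percentage of joint reads listed under copies for the 14 members with copies, and both against each other, 1 point per tumor, with red squares for the tumors X10_111 to IGF1_128 and blue lines for mean ± SD (n = 10). The 8 squares have the lowest copy shares, 11.2 to 15.0%, and Cox6c values from 166 to 272 RPKM.

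Other members with copies showed how far genes and copies parted. In X10 and IGF1 against the others 22 of 23 copies were lower (median log2 difference -0.28, 14 with an unadjusted p-value under 0.05), while 10 of their 14 parent genes were higher (median 0.08), and 13 of 14 parents had a higher log2 difference than every copy of theirs. Over all genes, 10.5% had such a p-value and 26 genes (0.155%) passed the adjusted threshold. Without the 2055 tested genes annotated as pseudogenes these were 6.7% and 1 gene. Such p-values were thus frequent among pseudogenes in general, and not only in these copies. Of the copies 2 passed the adjusted threshold, Gm5436 of Atp5o (-0.55, adjusted p = 0.0395, limma) and Gm16089 of Uqcrb (-0.59, adjusted p = 0.0450). Without the 8 libraries these were at -0.21 (adjusted p = 0.988) and -0.27 (adjusted p = 0.961). The copy share was highest for Atp5l (50.9% on average) and Atp5g2 (45.3%) and lowest for Atp5c1 (2.65%) and Cox7b (2.41%). For Atp5g2, the log2 difference was 0.24 (SE 0.07, adjusted p = 0.114, limma; 17 of 20 tumors above the mean of the others), 0.30 without the 8 libraries and 0.09 with the copies added. For Atp5c1 it was 0.20 (adjusted p = 0.180; 16 of 20 tumors), 0.06 without the 8 libraries and 0.08 with the copy share as a covariate. Thus the difference of Atp5g2 was as large without the 8 libraries, and those of Cox6c and Atp5c1 were not.

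Most members were correlated with the level of their own chromosome. For each tumor the level of a chromosome was taken as the median, over its protein-coding genes at a mean RPKM of 5 or more, of log2 values relative to each gene's mean, minus the same over the other chromosomes, with the member left out. The Pearson correlation of a member with its own chromosome, as a description over 50 tumors, had a median of 0.44 over the 42 members, where that with the other chromosomes was -0.04; centred within treatments it was 0.45. The own chromosome had the highest correlation of the 20 for 30 of 42 members (71.4%), and for 49.9% of all 9679 genes of this kind, whose median correlation was 0.38. The relation was thus found in other genes as well. Highest were Cox8a with chromosome 19 (0.67), Atp5f1 with chromosome 3 (0.67) and Cox6b1 with chromosome 7 (0.66), and lowest were Atp5e (-0.21), Cox4i2 (-0.12) and Uqcrc2 (0.04). DNA copy number was not measured.

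**Figure D3:**
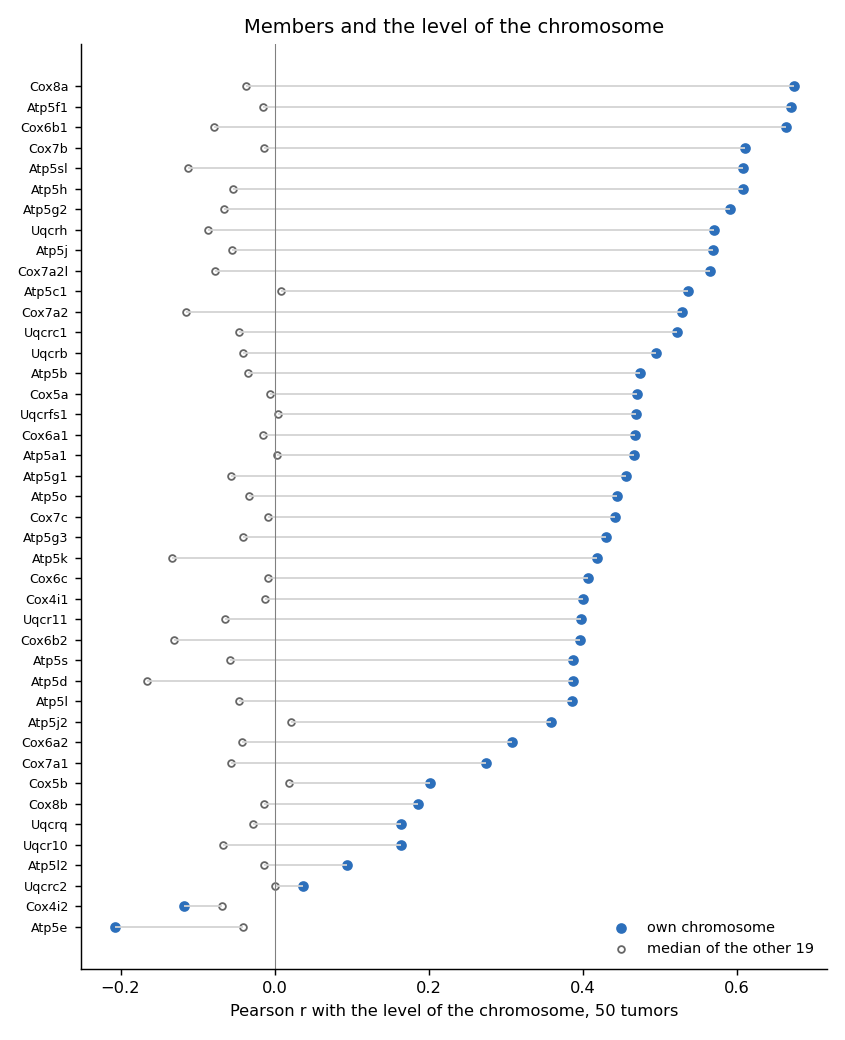
Pearson correlation of each of the 42 members with the level of its own chromosome and with that of the others, over 50 tumors. The own chromosome is above the others for most members, with medians of 0.44 and -0.04.

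Members were also compared in pairs. Over the 741 pairs of non-muscle members the mean correlation across tumors was 0.31, with 91.1% of pairs above 0, where it was 0.03 over all genes at a mean RPKM of 20 or more. Within complexes it was 0.34 for complex III, 0.35 for complex IV and 0.28 for complex V, and between complexes it was much the same (0.29 to 0.34). On the same chromosome the mean was 0.45 (39 pairs) and on different chromosomes 0.30 (702 pairs). Of the 5 closest pairs, 4 were on 1 chromosome: Uqcr11 and Atp5d on chromosome 10 (0.85), Cox6a1 and Atp5j2 on chromosome 5 (0.81), Atp5j2 and Atp5k on chromosome 5 (0.81), and Atp5j and Atp5o on chromosome 16 (0.80). The other was Atp5e on chromosome 2 with Atp5k on chromosome 5 (0.78). Atp5j2, subunit f of ATP synthase, had the highest mean correlation with the other members (0.49) and Atp5s the lowest (0.02), followed by Cox6c (0.14), and in complex III Uqcrc2 the lowest (0.17); the lowest pair was Cox6c and Atp5sl (-0.40).

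The mean of the members in a tumor was closest to the other subunit genes of the same complexes and cytochrome c. As descriptions over the 50 tumors, which share their libraries, its Pearson correlation was 0.91 with the 6 other subunits and cytochrome c genes, 0.73 with the 21 complex IV assembly genes and 0.62 with complex II. With the 5 complex III and 3 complex V assembly genes it was 0.24 and 0.26, below the 0.36 with skeletal muscle markers. It was -0.04 with the mitochondrially encoded subunits of the same complexes and 0.18 with glycolytic enzymes. With library size it was 0.07 and with the copy share -0.06. Of the regulators of mitochondrial genes, Pprc1, a coactivator of the PGC-1 family, was lower with X10 than with vehicle, with means of 123 and 178 RPKM (log2 difference -0.51, SE 0.11, adjusted p = 0.0473, limma), the 1 gene of these lists to pass the threshold in this comparison. Its log2 difference was -0.58 without the 8 libraries (adjusted p = 0.656) and -0.38 relative to its chromosome (adjusted p = 0.128), and over the settings tried the adjusted p-value was between 0.0342 and 0.656.

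A tumor that stood apart was X10 95, where Atp5b was at 3974 RPKM. In the other 49 tumors it was between 668 and 1286 (median 923), and in the 9 other X10 tumors between 674 and 1149. The X10 mean of Atp5b of 1159 ± 1000 (SD, n = 10) therefore rested on this tumor. Atp5b is at chr10:128083273-128090391, and its neighbours were raised with it. A run was extended from Atp5b in both directions, over protein-coding genes at a mean RPKM of 5 or more. It went on while the running median of 11 genes in X10 95 was at least 1, so its high level follows from this choice. The run held 60 genes from chr10:122992060-128958282 (5.97 Mb), with none of this kind between Usp15 and Xrcc6bp1. These genes had a median log2 value of 1.74 above the median tumor (-0.28 to 2.63), and 50 of them were highest of all tumors in X10 95. Genes just before the run were between -1.06 (Msrb3) and 2.08 (Srgap1). In the other 49 tumors the median of the genes of the run was between -0.42 and 0.38, and the rest of chromosome 10 in X10 95 was at 0.22. No other member lay in this run. Among its genes were Cdk4, a kinase of the cell cycle, at 1224 RPKM (median of the others 214, highest 394), and Cs, citrate synthase, at 234 (median 58.6, highest 82.3).

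**Figure D4:**
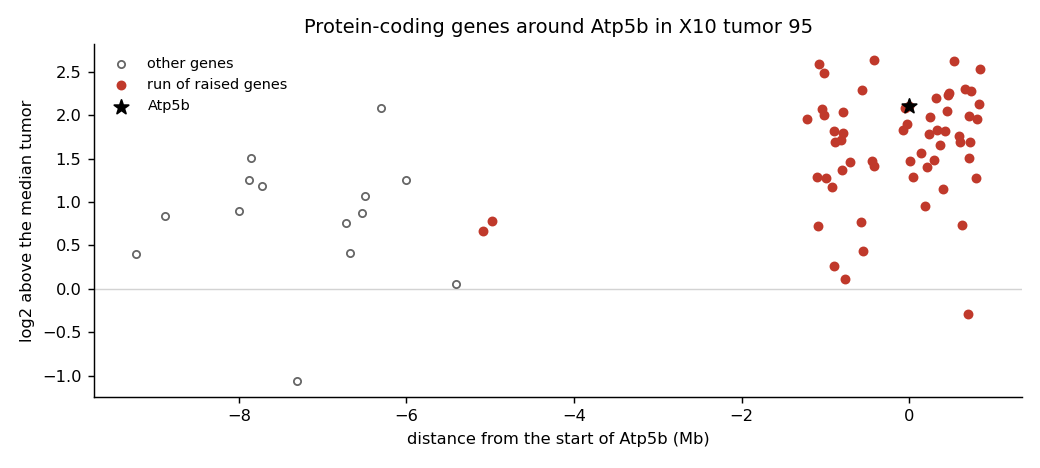
Log2 RPKM of tumor X10 95 above the median tumor for protein-coding genes around Atp5b, by distance from Atp5b in Mb, with the run of raised genes marked. The 60 genes of the run, which was chosen by these same values, have a median of 1.74, and the rest of the chromosome one of 0.22.

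Members were also compared with their neighbouring genes. The correlation of a member with the median of its 20 nearest genes had a median of 0.41, and was above 0 for 39 of 42 members (92.9%) and above 0.5 for 16 (38.1%). Over all 9679 genes of this kind the median was 0.49, with 93.4% above 0 and 49.2% above 0.5, so that the members' values were not above those of all genes. Among members it was highest for Atp5b (0.83, but 0.56 without X10 95, left out after seeing the data), Atp5h (0.81), Cox8a (0.77) and Atp5d (0.75), and lowest for Atp5k (-0.18). For Cox6c the level of chromosome 15 was at a mean of 0.05 with X10 and 0.09 with IGF1 and of -0.03, -0.08 and 0.00 with vehicle, insulin and glargine. Relative to the level of its chromosome, the log2 difference of Cox6c in X10 and IGF1 against the others was 0.33 (adjusted p = 0.140), and that of Atp5g2, also on chromosome 15, was 0.13.

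The muscle isoforms behaved unlike their ubiquitous partners. The SD of log2(RPKM + 0.5) was 1.83 for Cox6a2, 0.83 for Cox7a1 and 1.79 for Cox8b. Cox6a2 was between 0.106 and 76.9 RPKM (median 1.00), Cox7a1 between 0.962 and 30.8 (median 3.38) and Cox8b between 0 and 33.3 (median 0.387). All 3 were highest in the same tumor, glargine 64, where Cox6a1 was at 243, Cox7a2 at 77.5 and Cox8a at 196, within the range of other tumors. By group, Cox6a2 had medians of 0.889 with vehicle, 1.32 with insulin, 0.745 with glargine, 1.03 with X10 and 1.25 with IGF1, and the highest tumor of a group was between 18.4 and 76.9 and the lowest between 0.106 and 0.274. The group comparison with the smallest p-value was Cox7a1 with glargine, at 2.06, 7.23 and 30.8 RPKM against 0.962, 2.83 and 8.35 with vehicle (log2 difference 1.04, SE 0.34, p = 0.00346, adjusted p = 0.783, limma). Beside it 11 of 12 skeletal muscle markers and 7 of 7 adipocyte markers were higher with glargine (medians 0.63 and 0.90, adipocyte markers summed 20.6 to 322 in vehicle and 25.3 to 642 in glargine tumors). With the muscle and adipocyte scores as covariates the log2 difference of Cox7a1 was 0.87 (adjusted p = 0.815).

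A score of 12 skeletal muscle markers (mean z-score) fell into 3 separate runs of tumors, of 27, 10 and 13 tumors. All 3 isoforms had their highest median in the run of highest score. Cox6a2 was at 0.106, 0.426 and 3.78 RPKM in the run of lowest score, at 0.714, 1.25 and 2.58 in the middle run and at 6.51, 18.4 and 76.9 in the highest run, with no overlap between the last run and the others. Cox8b was at 0, 0.055 and 14.2, at 0.166, 0.566 and 1.13, and at 2.57, 7.60 and 33.3 in the same order, and Cox7a1 at 1.32, 2.86 and 10.9, at 0.962, 3.02 and 5.17, and at 4.42, 7.64 and 30.8, both with overlap. The partners were alike in the 3 runs, with medians of 284, 292 and 301 RPKM for Cox6a1. Tumors of each of the 5 groups were in the highest run (2 vehicle, 3 insulin, 4 glargine, 2 X10 and 2 IGF1).

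In all, 13 relations of isoforms with marker scores were tested by permutation with Benjamini-Hochberg adjustment, 9 of them within the runs and 4 over the 50 tumors. In the highest run (n = 13) Cox6a2 rose with the muscle score, with Pearson's r of 0.76 (permutation test, p = 0.00297, adjusted p = 0.0193) and Spearman's rho of 0.69 (adjusted p = 0.0513), and r was 0.76 without the 2 farthest tumors. For Cox7a1 r was 0.68 (permutation test, adjusted p = 0.0300; rho 0.54, adjusted p = 0.124) and for Cox8b 0.66 (adjusted p = 0.0307; rho 0.58, adjusted p = 0.107), but without the 2 farthest tumors these were 0.30 and 0.48 and no longer passed, so that they rest on those tumors. In the lowest and middle runs none of the 3 isoforms passed. With adipocyte markers, over the 50 tumors, Cox8b had r of 0.62 (permutation test, p = 2e-05, adjusted p = 2.6e-04) and rho of 0.60 (adjusted p = 2.6e-04), and r of 0.55 without the 2 farthest tumors and 0.58 centred within treatments. For Cox6a2 r was 0.38 (adjusted p = 0.0300; rho 0.37, adjusted p = 0.0513) and for Cox7a1 0.34 (adjusted p = 0.0307; rho 0.30, adjusted p = 0.107), the latter 0.34 without the 2 farthest tumors (adjusted p = 0.0611) and 0.24 when centred within treatments (adjusted p = 0.136). Cox4i2 and the pericyte and smooth muscle markers had r of 0.24 (adjusted p = 0.184; rho 0.25, adjusted p = 0.153).

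**Figure D5:**
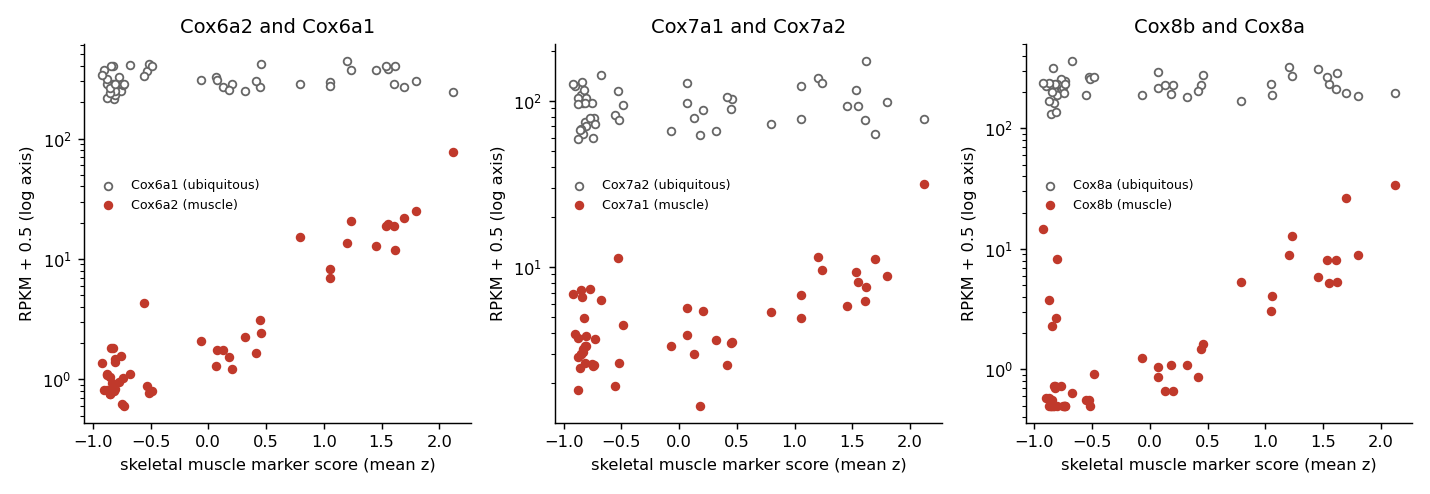
RPKM of Cox6a2, Cox7a1 and Cox8b and of their ubiquitous partners (RPKM + 0.5, log axis) against the score of 12 skeletal muscle markers (mean z-score, linear axis), 1 point per tumor. Cox6a2 is between 6.51 and 76.9 RPKM in the 13 tumors of the highest run, while Cox6a1 has medians from 284 to 301 in the 3 runs.

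Cox8b was also high where muscle markers were low: in the vehicle tumor Untreated_189 it was at 14.2 RPKM, with Cox6a2 at 0.881. Brown fat markers had summed RPKM values from 0.948 to 45.5 over the tumors (median 3.79). Ucp1, their defining gene, was between 0 and 5.26 (median 0.061). The highest values of Cidea and Dio2 were 7.44 and 44.7 (medians 0.077 and 2.38). The part of brown fat in the Cox8b values was not tested. Among the 3 genes whose levels ran most alike across the 50 tumors, by Spearman correlation and as a description, were Myl1 (0.82) and Car3 (0.81) for Cox8b. For Cox6a2 they were 3425401B19Rik (0.87), the muscle calcium channel gene Cacna1s (0.86) and Hrc (0.85). For Cox7a1 they were Dnajc15 (0.73), the complex I gene Ndufb5 (0.72) and Sbk2 (0.71), and for Cox4i2 they included BC028528 (0.74) and Ushbp1 (0.70).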

How the data were processed

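Poly-A selected RNA of 50 tumors was read on an Ion Proton sequencer. According to the submitters' processing notes, reads were aligned to GRCm38 with TopHat2 2.0.10 and Bowtie2 and counted per gene with HTSeq 0.6.1. The authors deposited RPKM values, reads divided by gene length and library size, with no log transformation and 1 column per tumor; their DESeq2 analysis was not used here. RPKM values are not counts, and the gene length and library size behind them were recovered from the steps of each gene (at least 98.6% of low values whole per library). Reads of near-identical copies can be split between gene and copy by the alignment, which changes both values.

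Groups were taken from the sample titles. Members and gene lists were chosen with earlier results of these data known. The 16733 genes at a mean RPKM of 0.5 or more were tested on log2(RPKM + 0.5) with limma 3.58.1 in R 4.3.3, with 5 groups in 1 fit, an intensity trend and Benjamini-Hochberg adjustment at 0.05; this scale understates changes of low genes. On simulated data for X10 against vehicle (16733 genes), 82% of changes of 1 on the log2 scale were found and 95% of changes of 2. Both sizes were in the same simulation, with 9 false calls in all. Changes below 1, such as those of the non-muscle members, were not simulated. Gene models were those of GENCODE M21. Copies had at least 95% identity over at least 100 bases in blastn 2.17.0, and Atp5l2 was not counted as a parent. Correlations with marker scores used 100000 permutations (Python 3.11.15). The genes given by group are the isoforms and their partners and the subunits Uqcrc1, Uqcrfs1, Cox5a, Atp5a1 and Atp5b. In each comparison and in the F test the 3 non-muscle members with the smallest p-values were taken as well. So were those with the 3 largest and 3 smallest SD, and per complex those with the highest and lowest mean correlation. Cox4i1 and Cox4i2 were added by name. The run of genes around Atp5b and the gene copies were also added, and these were chosen after their values were seen. Alternatives were pseudocounts of 0.1 and 1, other scalings, other filters, no trend, the compared groups alone, limma voom on recovered reads, library size and marker scores as covariates and, added after seeing the data, leaving out pseudogenes or 8 libraries, the copy share as a covariate, copies added to genes and values relative to the chromosome. One of the 3 genes most like Cox8b and one of those most like Cox4i2 are not reported here.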

Additional observations from a re-analysis of the deposited data

Results flagged for a closer look

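In 11 combinations of a named gene and a treatment group, the highest or lowest of the 10 tumors was set apart from the other 9 by Dixon's test. With 29 genes in 5 groups this is 7.59% of the combinations tested, and chance does this in about 1 in 20. Values are RPKM.

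Atp5b was 3974 in X10 95 (others of the group 674 to 1149) and 688 in glargine 70 (862 to 1060). Atp5h was 353 in the vehicle tumor Untreated_195 (others 188 to 245), 365 in glargine 47 (166 to 241) and 403 in X10 95 (164 to 250). In these 3 tumors the 20 nearest genes of Atp5h were also raised, with a median log2 value of 0.59, 0.41 and 0.68 above the median tumor beside 0.74, 0.78 and 0.93 for Atp5h. Cox6c was 249 in IGF1_128 (others 150 to 186.1), with 0.39 for its neighbours and 0.76 for the gene. Cox4i1 was 829 in IGF1_160 (349 to 521) and Uqcrc2 213 in the vehicle tumor Untreated_197 (86.6 to 127), with neighbours at 0.18 in both tumors. Atp5j2 was 139 in insulin 21 (185 to 240), with its neighbours at -0.07, and the pseudogene Atp5l2 was 0.801 in IGF1_124 (2.15 to 4.62). Cox8b was 25.8 in X10_105 (0 to 3.26). The cause of these values was not tested.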

How the results depend on the processing

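No paired analysis was possible because the replicate numbers are mouse numbers that no groups share. The count of members passing the threshold was 0 in the report, and it was 1 in X10 and IGF1 against the others with a pseudocount of 1, with upper quartile scaling and with the median of ratios, each time Cox6c; it remained 0 in the other 103 combinations of comparison and setting. The median log2 difference of the non-muscle members was between -0.21 and -0.13 with insulin, 0.00 and 0.07 with glargine, -0.07 and 0.02 with X10, -0.02 and 0.10 with IGF1, and 0.03 and 0.09 in X10 and IGF1 against the others. Of 39 settings of the relations with marker scores 4 no longer passed: without the 2 farthest tumors, r was 0.30 for Cox7a1 and 0.48 for Cox8b with muscle markers in the highest run, and 0.34 for Cox7a1 with adipocyte markers, which was 0.24 centred within treatments. The causes were not tested. RPKM carries no error of counting, and members under 5 RPKM rest on few reads.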
